A study of Homo sapiens with 8 samples.

Results

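The genes described here are those of 4 receptor tyrosine kinases, PDGFRA, PDGFRB, KIT and KDR, and of 6 ligands that bind them or their relatives, PDGFA, PDGFB, PDGFC, PDGFD, KITLG and VEGFA. They were taken by symbol, through the Ensembl gene identifiers of the count table, and make up 10 of its 37441 genes. RNA was sequenced in 8 libraries from 2 non-small cell lung cancer lines, in 2 replicates for each of 4 groups. NCI-H1581 and NCI-H1703 are the sensitive lines, whose growth is reduced by CPL304110, an inhibitor of the fibroblast growth factor receptors (FGFR). NCI-H1581R and NCI-H1703R are their resistant variants, selected in CPL304110 raised from 50 nM over 4 to 6 months, up to 2.5 µM for NCI-H1581R and 5 µM for NCI-H1703R. Each resistant variant is 1 selected population, so what selection did in other cultures of the same line cannot be read from it. All cells were harvested 24 h after a change of medium, and whether that medium held the inhibitor is not given in the sources used here. The methods name DMEM/F12 as the medium of NCI-H1581 and RPMI as that of NCI-H1703, so line and medium cannot be told apart. Replicates are repeats of the culture and harvest of 1 cell population, so p-values measure the spread between such repeats.

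PDGFRA and PDGFRB are the receptors for platelet-derived growth factors, which are secreted as dimers of the products of PDGFA, PDGFB, PDGFC and PDGFD. The A and C chains act mainly through PDGFRA, the D chain mainly through PDGFRB, and the B chain through both. The C and D chains are released in a latent form and become active after a protease removes their CUB domain. KIT is the receptor for stem cell factor, the product of KITLG, and is known for its role in mast cells, melanocytes and germ cells. KDR is the main receptor through which VEGFA acts on endothelial cells. PDGFRA, KIT and KDR lie next to each other in band q12 of chromosome 4, a stretch that is amplified in some gliomas and lung cancers, and NCI-H1703 is a line known for an amplified PDGFRA.

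In the GENCODE annotation of GRCh38, the build that the authors used, the receptors lay as PDGFRA (ENSG00000134853) at chr4:54229280-54298245 on the plus strand, KIT (ENSG00000157404) at chr4:54657267-54740783 on the plus strand, KDR (ENSG00000128052) at chr4:55078481-55125595 on the minus strand and PDGFRB (ENSG00000113721) at chr5:150113839-150155872 on the minus strand. The ligand genes were PDGFA (ENSG00000197461) at chr7:497258-520296 on the minus strand, PDGFB (ENSG00000100311) at chr22:39223359-39244982 on the minus strand, PDGFC (ENSG00000145431) at chr4:156760454-156971799 on the minus strand, PDGFD (ENSG00000170962) at chr11:103907189-104164379 on the minus strand, KITLG (ENSG00000049130) at chr12:88492793-88580851 on the minus strand and VEGFA (ENSG00000112715) at chr6:43770184-43786487 on the plus strand. Of the 10 genes, 8 reached a total of 10 counts summed over all libraries and were tested, as did 18203 of all genes, and KIT and KDR did not. A read-through gene annotated on the same strand (ENSG00000282278) shares 1533 of the 9547 exon bases of PDGFRA. It held 0 counts in the NCI-H1581 and NCI-H1581R libraries and 885 to 1444 in the others, which was 2.17% to 3.16% of its sum with PDGFRA. PDGFD shares 193 exon bases with DDI1 on the opposite strand, which held 0 counts in every library. KITLG and VEGFA share 80 and 188 exon bases with antisense genes that are not in the table, and whether the counting used strand is not given in the sources used here.

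Library totals ranged from 33800389 to 40031710 counts, and a floor of 3 counts in a library is 0.0749 to 0.0897 CPM (counts scaled for depth by the TMM library size), for counting error only. Of the 4 mesenchymal markers VIM held 99631 to 244224 counts in all libraries, whereas FN1, ZEB1 and CDH2 varied by group. The 5 epithelial markers summed to 19.0 to 22.7 CPM in NCI-H1581 and 13.1 to 15.1 CPM in NCI-H1581R. In NCI-H1703 they summed to 73.3 to 75.6 CPM, of which KRT18 made up 64.3 and 65.4 CPM, and in NCI-H1703R to 6.76 to 8.41 CPM. EPCAM had the opposite order to KRT18, at 15.9 and 13.1 CPM in NCI-H1581 and 0.703 and 0.209 CPM in NCI-H1703, so the sums do not rank the lines. The 4 fibroblast markers (COL1A1, COL1A2, DCN and LUM) summed to 2253 to 2534 CPM in NCI-H1581, 1010 to 1031 CPM in NCI-H1581R, 2.46 to 2.48 CPM in NCI-H1703 and 23.7 to 27.6 CPM in NCI-H1703R. The keratin gene KRT5 held 0 or 1 counts in all 4 first replicates and 35 to 47 in all 4 second ones, so that difference followed the replicate number in both lines.

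Sequences before the start sites are shown for PDGFRA and PDGFRB, since these 2 receptors were expressed in opposite lines. They come from the promoter table of RefSeq (GRCh38.p14), which held 7 of the 10 genes and not PDGFB, PDGFC or VEGFA, and were trimmed to bases outside annotated exons. Capitals mark a GC box (GGGCGG) or a CCAAT box (CCAAT) on either strand, and the TATA box (TATAAA) was searched as well. No match overlapped another. PDGFRA has 2 RefSeq starts, at positions 54229293 and 54233960, the second in an intron of the GENCODE gene, and the counts per gene do not tell which one was used. The stretches are chr4:54229043-54229279 and chr4:54233710-54233959 on the plus strand and chr5:150155873-150156095 on the minus strand.
PDGFRA, first start: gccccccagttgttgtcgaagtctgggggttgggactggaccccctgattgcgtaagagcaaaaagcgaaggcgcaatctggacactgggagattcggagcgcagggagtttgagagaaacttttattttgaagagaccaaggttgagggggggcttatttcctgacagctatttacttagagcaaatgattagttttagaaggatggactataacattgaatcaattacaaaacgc
PDGFRA, second start: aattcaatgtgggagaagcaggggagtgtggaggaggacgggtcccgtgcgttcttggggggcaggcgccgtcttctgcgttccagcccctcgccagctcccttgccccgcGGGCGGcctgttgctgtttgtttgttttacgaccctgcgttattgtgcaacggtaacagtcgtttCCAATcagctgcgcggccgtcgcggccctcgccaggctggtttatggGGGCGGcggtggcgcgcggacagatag
PDGFRB: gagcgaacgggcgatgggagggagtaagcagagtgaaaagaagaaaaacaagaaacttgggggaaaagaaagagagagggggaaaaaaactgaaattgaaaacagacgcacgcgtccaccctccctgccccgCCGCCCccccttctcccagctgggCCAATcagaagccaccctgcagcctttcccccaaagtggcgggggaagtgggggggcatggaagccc
The stretch before the first PDGFRA start held none of the 3 motifs. Before the second stood a GC box 139 to 134 bases and another 27 to 22 bases ahead of the start, with a CCAAT box at 74 to 70 bases. The PDGFRB stretch held a GC box on the other strand 118 to 113 bases and a CCAAT box 94 to 90 bases ahead of its start. Among all 35116 promoters of the table, 42.6% held a GC box in the 250 bases before the start, 32.0% a CCAAT box and 10.7% a TATA box, so such matches are common. GC boxes also stood before KIT (1) and KDR (2), which gave hardly any counts.

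PDGFRA was high in NCI-H1703 and NCI-H1703R and barely detected in the other line. It held 44801 and 43519 counts in the NCI-H1703 replicates and 39866 and 41101 in the NCI-H1703R replicates, against 30 and 63 in NCI-H1581 and 37 and 50 in NCI-H1581R. In CPM these were 1211 and 1301, 1054 and 1085, 0.890 and 1.57 and 0.983 and 1.27, so the libraries of one line lay far above those of the other. In NCI-H1703 the gene ranked 351 of 17177 genes by CPM per kb of canonical transcript, and in NCI-H1581 it ranked 13147.

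PDGFRB, the other PDGF receptor, was low and had the opposite order. Its counts were 235 and 158 in NCI-H1581 and 178 and 234 in NCI-H1581R, against 22 and 11 in NCI-H1703 and 9 and 7 in NCI-H1703R. Every NCI-H1581 or NCI-H1581R library, at 3.94 to 6.97 CPM, lay above every library of the other line, at 0.185 to 0.595 CPM. Per kb, PDGFRA stood at 1820 and 3536 times PDGFRB in the 2 NCI-H1703 libraries, while PDGFRB stood at 8.77 and 2.81 times PDGFRA in the 2 NCI-H1581 libraries.

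KIT and KDR were at or near 0. KIT held 0 counts in 5 libraries and 1, 3 and 5 in the others, the last in an NCI-H1703 library. KDR held 0 counts in 7 libraries and 2 counts in 1 NCI-H1581R library. No fold was taken for either. The markers of the cell types that carry these receptors were mostly low as well. The 4 mast cell markers summed to at most 0.250 CPM. Of the 4 endothelial markers, CDH5 held at most 1 count in any library, VWF at most 11 and PECAM1 at most 18. TEK, another endothelial receptor gene, was the exception with 390 and 572 counts in NCI-H1581R, against 0 to 3 in the other libraries.

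**Figure D1:**
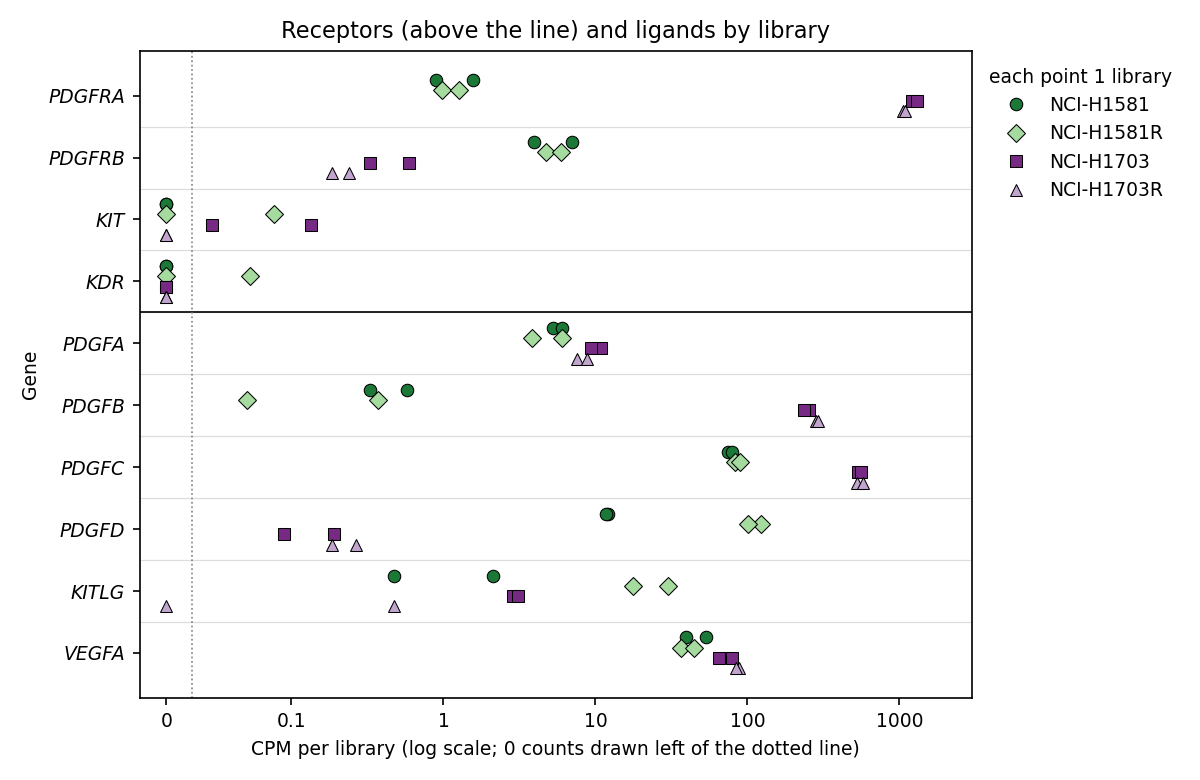
CPM on a log axis for the 4 receptors, above the black line, and the 6 ligands, below it. Each point is 1 library, coloured by group, and libraries with 0 counts are drawn left of the dotted line. PDGFRA and PDGFB were at least 237 CPM in all 4 libraries of NCI-H1703 and NCI-H1703R and at most 1.57 CPM in the 4 of the other line, and PDGFD had the reverse order.

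Among the ligands, PDGFB and PDGFC were highest in the line that expressed PDGFRA. PDGFB held 9385 and 7915 counts in NCI-H1703 and 10691 and 11082 in NCI-H1703R, against 11 and 23 in NCI-H1581 and 14 and 2 in NCI-H1581R. PDGFC, whose product binds PDGFRA, was found in all libraries, at 535 and 563 CPM in NCI-H1703, 526 and 578 CPM in NCI-H1703R, 74.4 and 79.3 CPM in NCI-H1581 and 83.2 and 88.8 CPM in NCI-H1581R. It was the highest ligand of the 6 per kb in NCI-H1581, NCI-H1703 and NCI-H1703R. PDGFA, the other ligand specific for PDGFRA, was modest throughout, at 5.25 and 6.07 CPM in NCI-H1581, 3.80 and 6.02 in NCI-H1581R, 10.9 and 9.42 in NCI-H1703 and 7.53 and 8.79 in NCI-H1703R. The libraries of the 2 lines did not overlap for any of these 3 genes. Such separation is common here: groups did not overlap for 76.7% of all genes between the sensitive lines and for 71.3% between the resistant variants.

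PDGFD, whose product binds PDGFRB, was expressed in the line that had PDGFRB and lacked a high PDGFRA. Its counts were 406 and 469 in NCI-H1581 and 4636 and 3970 in NCI-H1581R, against 7 and 3 in NCI-H1703 and 10 and 7 in NCI-H1703R. KITLG held 71 and 19 counts in NCI-H1581, 1124 and 694 in NCI-H1581R, 106 and 103 in NCI-H1703 and 0 and 18 in NCI-H1703R. Its replicates differed most in NCI-H1703R, where 1 library held none, and in NCI-H1581, while both NCI-H1581R libraries stood above all others. VEGFA, the angiogenic ligand of KDR, was present in every library, at 53.8 and 39.4 CPM in NCI-H1581, 36.7 and 44.8 in NCI-H1581R, 79.1 and 65.0 in NCI-H1703 and 88.6 and 84.0 in NCI-H1703R. The lines did not overlap in VEGFA either, with NCI-H1703 and its variant higher.

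The order of the genes by CPM per kb (mean ± SD, n = 2) differed by line. In NCI-H1703 it ran from PDGFRA at 197 ± 10.0 through PDGFC at 120.2 ± 4.33, PDGFB at 65.8 ± 3.22 and VEGFA at 20.0 ± 2.75 to PDGFA at 3.71 ± 0.387, with KITLG at 0.546 ± 0.0279 next and the rest lower. In NCI-H1581 it ran from PDGFC at 16.8 ± 0.758 through VEGFA at 12.9 ± 2.83, PDGFD at 3.10 ± 0.0622 and PDGFA at 2.06 ± 0.210 to PDGFRB at 0.958 ± 0.376. KITLG, PDGFRA and PDGFB followed there at 0.237 ± 0.212, 0.193 ± 0.0757 and 0.121 ± 0.0470 and did not differ beyond their spread. In NCI-H1581R PDGFD led at 29.2 ± 4.12, above PDGFC at 18.8 ± 0.864 and VEGFA at 11.3 ± 1.58, and KITLG at 4.36 ± 1.59 had passed PDGFA at 1.79 ± 0.573. In NCI-H1703R the first 5 kept the order of NCI-H1703, and PDGFD, KITLG and PDGFRB followed at 0.0585 ± 0.0147, 0.0437 ± 0.0617 and 0.0371 ± 0.00660. KITLG did not differ from either of these beyond its spread there. PDGFD stood at 1.65 and 1.49 times PDGFRB in the NCI-H1703R libraries, on 7 to 10 counts a library for both genes.

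The question of the sensitive lines was how far the receptors and ligands differed before selection. PDGFRA was 995-fold higher in NCI-H1703 than in NCI-H1581 (log2 fold change 9.96 ± 0.20, standard error, edgeR adjusted p = 6.73e-08). PDGFB was 528-fold higher (9.04 ± 0.19, edgeR adjusted p = 8.01e-08), on 11 and 23 counts in NCI-H1581. PDGFC was 7.14-fold higher, PDGFA 1.79-fold and VEGFA 1.55-fold, with edgeR adjusted p-values of 6.88e-07, 0.00922 and 0.0114. In the other direction, PDGFD was 81.7-fold lower in NCI-H1703 (-6.35 ± 0.39, edgeR adjusted p = 6.40e-06) and PDGFRB 11.4-fold lower (-3.51 ± 0.52, edgeR adjusted p = 0.000919). KITLG was 2.42-fold higher in NCI-H1703 by this test (edgeR adjusted p = 0.0821). The call was lost with the replicate block (0.116), with DESeq2 (0.182) and with the older quasi-dispersions of edgeR (0.159). It was also lost without the second NCI-H1581 library or either NCI-H1703 library. The log2 fold change of KITLG, 1.27, was 2.64 without the first NCI-H1581 library and 0.49 without the second. That of PDGFD was -6.98 without the first NCI-H1703 library. All 8 tested genes were thus called, but 62.9% of the 18203 genes were called between these lines, so a call as such is common here. The median absolute log2 difference was 3.17 over the 8 genes and 0.94 over all genes.

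Of the 8 genes, 7 kept the direction of the sensitive lines between the resistant variants, and KITLG did not. In NCI-H1703R against NCI-H1581R the log2 fold changes were 9.92 ± 0.28 for PDGFRA, 10.45 ± 0.42 for PDGFB, 2.72 ± 0.17 for PDGFC and 1.12 ± 0.17 for VEGFA, and -4.60 ± 0.45 for PDGFRB and -8.91 ± 0.29 for PDGFD (edgeR adjusted p at most 0.00435). KITLG was lower in the NCI-H1703 variant, with a log2 fold change of -6.59 ± 0.71 (edgeR adjusted p = 0.00149), which was -5.61 without the first NCI-H1703R library and -12.83 without the second. The log2 fold change of PDGFB was 12.34 without the first NCI-H1581R library and 9.61 without the second, which held 2 counts. PDGFA was 1.70-fold higher (edgeR adjusted p = 0.0912). That call did not hold with the replicate block (0.130), with DESeq2 (0.129) or with the older quasi-dispersions of edgeR (0.111). Nor did it hold without the first NCI-H1581R library or either NCI-H1703R library. Here 52.5% of all genes tested were called.

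In the NCI-H1581 line, 2 ligands rose with resistance and no change of the PDGF receptors passed the test. PDGFD went from 12.05 and 11.71 CPM in NCI-H1581 to 123 and 101 CPM in NCI-H1581R, a 9.49-fold rise (log2 fold change 3.25 ± 0.19, edgeR adjusted p = 0.000207), and moved from rank 8814 to rank 2734 of 17177 genes per kb. KITLG went from 2.11 and 0.474 CPM to 29.9 and 17.6 CPM, a 19.3-fold rise (4.27 ± 0.54, edgeR adjusted p = 0.00420). In both cases each NCI-H1581R library lay above each NCI-H1581 library, as was so for PDGFC too (3 of the 8 genes, beside 50.6% of all genes whose groups did not overlap), and both calls held without any 1 of the 4 libraries. The log2 fold change of KITLG was 5.62 without the first NCI-H1581 library and 3.50 without the second. These 2 of the 8 tested genes compare with 15.1% of all genes called in this comparison.

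The other 6 did not pass the test in NCI-H1581R. The log2 fold changes were -0.14 ± 0.51 for PDGFRA, -0.00 ± 0.35 for PDGFRB, -0.20 ± 0.32 for PDGFA, -1.12 ± 0.91 for PDGFB, 0.17 ± 0.16 for PDGFC and -0.18 ± 0.21 for VEGFA. PDGFRA and PDGFB, with the widest errors, rested on 2 to 63 counts a library. Per kb, PDGFD stood at 2.57 and 4.41 times PDGFRB in the NCI-H1581 libraries and at 38.7 and 25.2 times in the NCI-H1581R libraries. Beside these rises, all 4 fibroblast markers fell in NCI-H1581R, DCN from 1647 and 1737 counts to 9 and 3. The endothelial marker TEK rose from 1 count in each library to 390 and 572. The other endothelial markers did not rise with it: PECAM1 held 7 and 18 counts before and 0 and 7 after, and CDH5 and VWF at most 1. The 4 pericyte and smooth muscle markers summed to 123 to 142 CPM before and 49.2 to 50.8 CPM after, but moved in opposite directions: CSPG4 fell from 2241 and 2371 counts to 29 and 45 and ACTA2 from 2476 and 2514 to 543 and 683, RGS5 rose from 43 and 45 to 1338 and 1206, and MYH11 stayed at 12 counts or fewer. Of the 4 mesenchymal markers FN1 rose from 21 and 57 counts to 28023 and 36165 and ZEB1 from 56 and 92 to 711 and 1246, and VIM and CDH2 did not pass the test. Their part in the changes of PDGFD and KITLG was not tested, and in bulk RNA fewer cells of a type and less RNA per cell cannot be told apart.

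**Figure D2:**
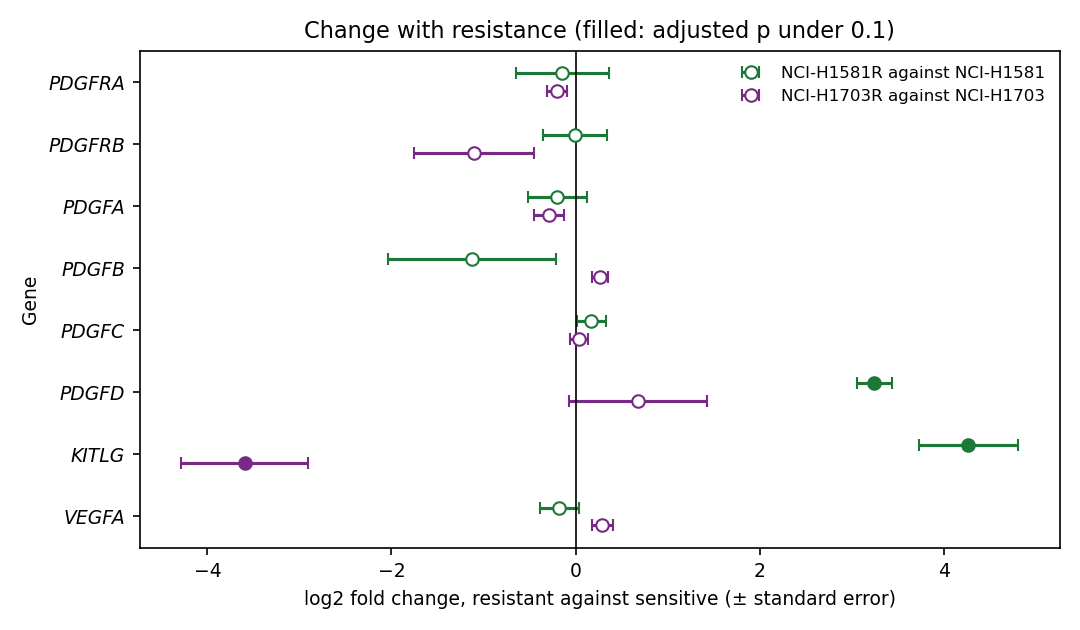
Log2 fold change of each resistant variant against its sensitive line for the 8 tested genes, with bars of 1 standard error from edgeR on 2 against 2 libraries. Filled points passed an adjusted p of 0.1: PDGFD (3.25) and KITLG (4.27) in NCI-H1581R, and KITLG (-3.59) in NCI-H1703R.

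In the NCI-H1703 line, KITLG fell with resistance, and the other 7 genes did not pass the test. KITLG went from 2.87 and 3.08 CPM in NCI-H1703 to 0 and 0.475 CPM in NCI-H1703R (106 and 103 against 0 and 18 counts), with a log2 fold change of -3.59 ± 0.69 (edgeR adjusted p = 0.0341). The fall rested on few counts: the adjusted p was 0.337 with DESeq2, 0.116 with the older quasi-dispersions of edgeR, and 0.1396 and 0.150 without the first or the second NCI-H1703 library. With the replicate number as a block it was 0.000358. The log2 fold change itself was -2.60 without the first NCI-H1703R library, which held 0 counts, and -9.74 without the second, where the group is left at 0 counts and the fitted value depends on the prior count. KITLG was 1 of the 8 tested genes, where 14.7% of all genes were called.

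PDGFRA went from 1211 and 1301 CPM to 1054 and 1085 CPM, with both resistant libraries below both sensitive ones, a log2 fold change of -0.20 ± 0.11 that missed the threshold (edgeR adjusted p = 0.336). PDGFB had 0.26 ± 0.09 (edgeR adjusted p = 0.135), with 254 and 237 CPM before and 283 and 292 CPM after. Groups did not overlap in this line for 6 of the 8 genes (PDGFRA, PDGFRB, PDGFA, PDGFB, KITLG and VEGFA), beside 51.3% of all genes. VEGFA had 0.29 ± 0.11 (edgeR adjusted p = 0.189), with 79.1 and 65.0 CPM before and 88.6 and 84.0 after. With the replicate number as a block, PDGFRA (0.0437), PDGFB (0.0101) and VEGFA (0.0114) passed the test by edgeR adjusted p, and 34.9% of all genes did so. DESeq2 called PDGFRA (0.0921) and PDGFB (0.0461) and not VEGFA, among 16.7% of all genes. The log2 fold changes of the other 4 were -1.10 ± 0.65 for PDGFRB, -0.29 ± 0.17 for PDGFA, 0.04 ± 0.10 for PDGFC and 0.68 ± 0.75 for PDGFD, and PDGFRB and PDGFD rested on 3 to 22 counts a library. Of the 5 epithelial markers KRT18 fell in this line, from 2380 and 2188 to 109 and 94 counts, and the other 4 did not pass the test. Of the 4 fibroblast markers COL1A1 rose from 39 and 30 to 999 and 827 counts, while COL1A2, DCN and LUM held at most 55 counts in any library of the line. Of the 4 mesenchymal markers CDH2 fell from 1857 and 1626 to 41 and 44 counts and FN1 from 334 and 341 to 208 and 218. The part of these markers in the values above was not tested.

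Whether the change with resistance differed between the lines was tested directly, as an interaction over all 8 libraries. It did for KITLG, which rose in one line and fell in the other, by -7.89 ± 1.05 on the log2 scale (NCI-H1703 change minus NCI-H1581 change, edgeR adjusted p = 0.00243), and the call held under each alternative tried. Its size did not hold as well: it was -6.90 without the first NCI-H1703R library, which held 0 counts, and -14.04 without the second, a fit to a lone library at 0 that depends on the prior count. KITLG was 1 of the 8 genes, against 15.4% of all genes. For PDGFD the difference was -2.59 ± 0.91, which missed the threshold (edgeR adjusted p = 0.121) but passed it with DESeq2 (0.000950) and with the older quasi-dispersions (0.0175), so the call depends on how the spread is estimated. PDGFB had 1.36 ± 0.71 (edgeR adjusted p = 0.305), with 0.0230 by DESeq2 and 0.0699 without the first NCI-H1581R library. The differences of PDGFRA (-0.08 ± 0.39), PDGFRB (-1.12 ± 0.99), PDGFA (-0.11 ± 0.35), PDGFC (-0.15 ± 0.17) and VEGFA (0.45 ± 0.26) were not called under any alternative.

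The relatives of these genes, 13 further receptors, co-receptors and ligands of the same families, held 12 tested genes. The neuropilins NRP1 and NRP2, co-receptors that bind VEGF forms alongside the kinase receptors, rose in NCI-H1581R. NRP1 went from 13 and 16 counts in NCI-H1581 to 1253 and 1438 in NCI-H1581R (log2 fold change 6.47 ± 0.30, edgeR adjusted p = 9.59e-05) and NRP2 from 87 and 84 to 695 and 947 (3.20 ± 0.28, edgeR adjusted p = 0.000902). In NCI-H1703R NRP1 fell instead, from 248 and 197 to 49 and 47 counts (-2.28 ± 0.26, edgeR adjusted p = 0.00665; 0.130 and 0.113 without the first or second NCI-H1703 library). FLT4, the receptor for VEGFC and VEGFD in lymphatic vessels, stood at 50.2 and 46.6 CPM in NCI-H1703 and fell to 25.7 and 23.1 CPM in NCI-H1703R (-0.96 ± 0.11, edgeR adjusted p = 0.00685; 0.129 and 0.115 without the first or second NCI-H1703 library), against 3.07 to 4.78 CPM in the 4 other libraries. Its ligand VEGFC was higher in NCI-H1703 than in NCI-H1581 (7.55 ± 0.55, edgeR adjusted p = 5.58e-06, with a range of 6.71 to 11.55 on leaving out 1 library, since 1 NCI-H1581 library held 0 counts). It stood at 9.92 and 11.7 CPM in NCI-H1703 and 15.7 and 16.4 CPM in NCI-H1703R, and held 0 or 4 counts in each library of the other line.

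CSF1, a ligand of the macrophage receptor CSF1R, rose in NCI-H1703R from 24.0 and 26.2 CPM to 62.5 and 78.7 CPM (1.52 ± 0.14, edgeR adjusted p = 0.00361, and 0.107 without the first NCI-H1703 library). IL34, the other ligand of CSF1R, rose at a lower level from 0.892 and 1.23 to 2.78 and 4.04 CPM (1.72 ± 0.38, edgeR adjusted p = 0.0478; 0.304, 0.242 and 0.151 without the first or second NCI-H1703 or the second NCI-H1703R library). CSF1R itself held at most 4 counts in any library and was not tested. VEGFB fell in NCI-H1581R from 76.1 and 73.6 to 47.1 and 44.7 CPM (-0.70 ± 0.16, edgeR adjusted p = 0.0391; 0.315 and 0.302 without the first or second NCI-H1581 library). Of the 12 genes tested, 2 rose and 1 fell in NCI-H1581R and 3 rose and 3 fell in NCI-H1703R. The median absolute log2 fold change was 0.73 and 0.71, beside 0.42 and 0.29 over all genes tested. Between the sensitive lines 8 were higher and 4 lower in NCI-H1703, and between the resistant variants 5 were higher and 4 lower in NCI-H1703R. The counts are read beside the 15.1%, 14.7%, 62.9% and 52.5% of all genes called.

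**Figure D3:**
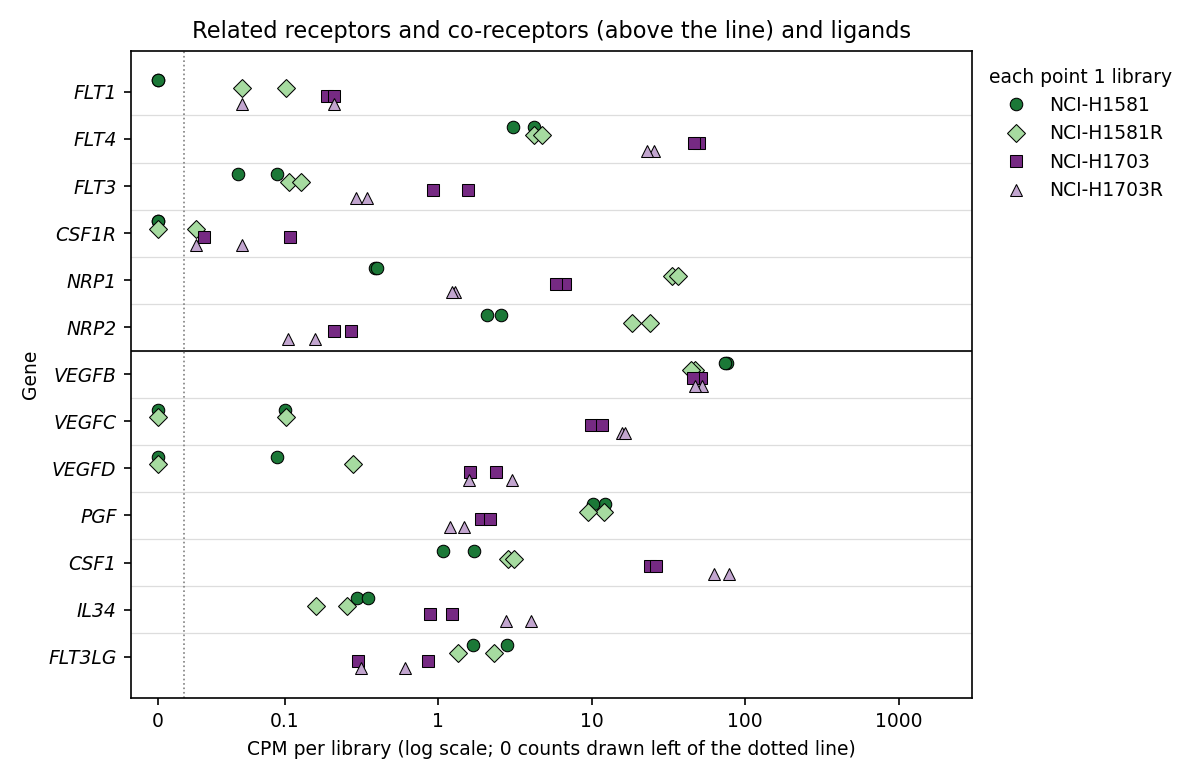
CPM on a log axis for 6 related receptors and co-receptors, above the black line, and 7 related ligands, below it, with 1 point per library and libraries with 0 counts left of the dotted line. NRP1 and NRP2 were highest in both NCI-H1581R libraries, at 33.3 and 36.5 CPM and 18.5 and 24.1 CPM, and CSF1 in both NCI-H1703R libraries, at 62.5 and 78.7 CPM.

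Of 10 genes that process or clear the ligands, 1 rose and 1 fell in NCI-H1581R, beside 15.1% of all genes called. PLAT, tissue plasminogen activator, which cleaves the latent PDGF-C dimer, fell from 2.73 and 2.10 CPM to 0.159 and 0.330 CPM (-3.25 ± 0.58, edgeR adjusted p = 0.0170, with a range of -3.89 to -2.83 on leaving out 1 library). PLAU, urokinase, which cleaves the latent PDGF-D dimer, rose from 2.37 and 1.80 to 4.17 and 5.28 CPM (1.20 ± 0.34, edgeR adjusted p = 0.0822), a call lost without the first (0.254) or second (0.417) NCI-H1581 library or the second NCI-H1581R library (0.153). In NCI-H1703R 1 rose and 2 fell, beside 14.7% of all genes. MMP9, a protease that can release the KITLG product from the cell surface, fell from 2.62 and 3.71 to 0.846 and 0.792 CPM (-1.91 ± 0.39, edgeR adjusted p = 0.0389). The proprotein convertase PCSK6 fell (-0.80 ± 0.18) and the sheddase ADAM17 rose (0.38 ± 0.09), with edgeR adjusted p-values of 0.0545 and 0.0570. These 3 calls in NCI-H1703R were each lost when any 1 of the 4 libraries was left out, with adjusted p-values of 0.104 to 0.320. With the replicate block 2 rose and 3 fell in NCI-H1703R, beside 34.9% of all genes. Between the sensitive lines 4 were higher and 1 lower in NCI-H1703, beside 62.9%. FURIN, a convertase of the PDGF chains, was higher at 2708 and 2579 counts against 1483 and 1528 in NCI-H1581 (0.87 ± 0.11, edgeR adjusted p = 0.000419), and PLAT was lower (-3.21 ± 0.57, edgeR adjusted p = 0.00229, and -4.26 to -2.67 on leaving out 1 library). Between the resistant variants 2 were higher and 3 lower in NCI-H1703R, beside 52.5%, against 1 and 1 with the replicate block, where 42% of all genes were called.

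Among 31 adaptors and effectors that bind the activated receptors or lie directly below them, 5 rose and 2 fell in NCI-H1581R, where 15.1% of all genes were called. In NCI-H1703R 7 rose and 4 fell, beside 14.7% of all genes, and 14 rose and 6 fell with the replicate block, beside 34.9%. In NCI-H1581R the genes called included the docking protein gene GAB1 (1.47 ± 0.36), the Ras exchange factor SOS2 (1.10 ± 0.27) and the adaptor SHC1 (-0.88 ± 0.20), with edgeR adjusted p-values of 0.0552, 0.0507 and 0.0423. These 3 lost the call without the first or second NCI-H1581 library, with adjusted p-values of 0.108 to 0.355. In NCI-H1703R the largest called changes were those of the docking protein gene GAB2 (-1.80 ± 0.46), the Src family kinases LYN (0.98 ± 0.11) and FYN (0.78 ± 0.16) and the PI 3-kinase subunit PIK3CD (-0.94 ± 0.13), with edgeR adjusted p-values of 0.0706, 0.00671, 0.0419 and 0.0133. Without the first or second NCI-H1703 library these 4 reached 0.111 to 0.308. PIK3CD rose in NCI-H1581R (0.77 ± 0.19, edgeR adjusted p = 0.0583), and the difference between the lines was -1.73 ± 0.22 (edgeR adjusted p = 0.00180).

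Between the sensitive lines, 15 of the 31 were higher and 7 lower in NCI-H1703, beside 62.9% of all genes called. GRB10, an adaptor that binds PDGF receptors among others, stood out at 76.3 and 74.5 CPM in NCI-H1703 against 0.445 and 0.350 CPM in NCI-H1581 (7.57 ± 0.20, edgeR adjusted p = 1.81e-07). SHB, an adaptor of the PDGF and VEGF receptors, was higher by 3.34 ± 0.14 and LYN by 4.26 ± 0.27, while GAB2 had -3.48 ± 0.22 (edgeR adjusted p at most 1.08e-05). The median log2 difference over the 31 genes was 0.32, beside 0.04 over all genes. Between the resistant variants 13 were higher and 6 lower in NCI-H1703R, beside 52.5% of all genes, with GRB10 at 8.56 ± 0.26 and GAB2 at -6.06 ± 0.33 (edgeR adjusted p = 3.11e-05 and 0.000141).

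Of 15 genes for inhibitors of these receptors, 14 were tested. In NCI-H1581R 2 rose and 1 fell, beside 15.1% of all genes called: CBLB, a ubiquitin ligase of activated receptors, rose from 0.386 and 0.225 to 2.60 and 3.58 CPM (3.37 ± 0.55, edgeR adjusted p = 0.0124). PTPN6, a phosphatase known to act on KIT, rose by 1.92 ± 0.54, 1.43 to 2.77 on leaving out 1 library (edgeR adjusted p = 0.0802; 0.316, 0.123 and 0.147 without the first or second NCI-H1581 or the second NCI-H1581R library). SOCS6, a KIT-binding suppressor, had -0.98 ± 0.18 (edgeR adjusted p = 0.0196; 0.115 and 0.225 without the first or second NCI-H1581 library). In NCI-H1703R 2 rose and 2 fell, beside 14.7% of all genes. PTPN6 rose there too, from 148 and 132 to 371 and 267 counts (1.12, edgeR adjusted p = 0.0478, and 0.86 to 1.33 on leaving out 1 library). PTPRJ, a receptor phosphatase, fell from 82.0 and 82.2 to 31.7 and 34.4 CPM (-1.28 ± 0.09, edgeR adjusted p = 0.00172), a call that held without any 1 library, and in this gene the lines differed by -1.66 ± 0.30 (edgeR adjusted p = 0.0106). Between the sensitive lines PTPRJ was 11.3-fold higher in NCI-H1703, and 6 of the 14 genes were higher and 4 lower, beside 62.9% of all genes called. SH2B3, an adaptor that restrains KIT signals, rose from 53.2 and 50.4 to 90.9 and 94.3 CPM (0.87 ± 0.09, edgeR adjusted p = 0.00444, and 0.104 and 0.111 without the first or second NCI-H1703 library).

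The high PDGFRA of NCI-H1703 was set beside the other protein-coding genes of 4q12 whose start lies within 3 Mb of the stretch from PDGFRA to KDR. Copy number was not analysed here. Without PDGFRA and its read-through gene, 27 of them were tested, and 17 were higher and 3 lower in NCI-H1703 than in NCI-H1581, or 74.1% beside the 62.9% of all genes. Their median log2 difference was 0.64, beside 0.04 over all genes and 9.96 for PDGFRA. FIP1L1 and CHIC2, the closest tested neighbours before PDGFRA, had 1.42 ± 0.13 and 1.54 ± 0.19, with edgeR adjusted p-values of 6.57e-05 and 0.000298. Beyond KDR the closest tested genes were not higher: SRD5A3 was lower (-1.93 ± 0.12), and TMEM165 was not called (-0.04 ± 0.10, edgeR adjusted p = 0.786). CLOCK and EXOC1, further out, had 1.55 ± 0.15 and 1.49 ± 0.12, with edgeR adjusted p-values of 9.57e-05 and 4.05e-05. The furthest from 0 among those higher were LRRC66 (3.83 ± 0.91, on 29 and 15 counts in NCI-H1703) and CRACD (3.76 ± 0.36, and 3.22 to 4.46 on leaving out 1 library). KIT and KDR, which lie between CHIC2 and SRD5A3, were at or near 0 in NCI-H1703.

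With resistance, 1 of the 27 rose and 1 fell in NCI-H1703R, beside 14.7% of all genes called, and their median log2 fold change was -0.06. With the replicate block 4 rose and 5 fell, a share near the 34.9% of all genes. CRACD, a regulator of actin capping, rose from 8.62 and 8.04 to 30.5 and 26.1 CPM (1.79 ± 0.15, edgeR adjusted p = 0.00239), while the neuropeptide gene NMU fell from 1.43 and 2.45 to 0.291 and 0.343 CPM (-2.56 ± 0.57, edgeR adjusted p = 0.0495, and 0.137 to 0.255 without any 1 library). In NCI-H1581R 6 rose and 1 fell, beside 15.1% of all genes, with a median of 0.24. SPATA18, involved in mitochondrial quality control, rose from 0 and 5 counts to 88 and 92 (5.05 ± 0.81, edgeR adjusted p = 0.00719, and 4.18 to 9.43 on leaving out 1 library), and NMU from 20 and 10 to 170 and 134 counts (3.27 ± 0.52, edgeR adjusted p = 0.0109, and 2.74 to 3.96). The secreted factor gene IGFBP7 fell from 51 and 36 to 0 and 1 counts (edgeR adjusted p = 0.0231). In the change of NMU the lines differed by -5.85 ± 0.75 (edgeR adjusted p = 0.00214, and -6.56 to -5.32 on leaving out 1 library).

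**Figure D4:**
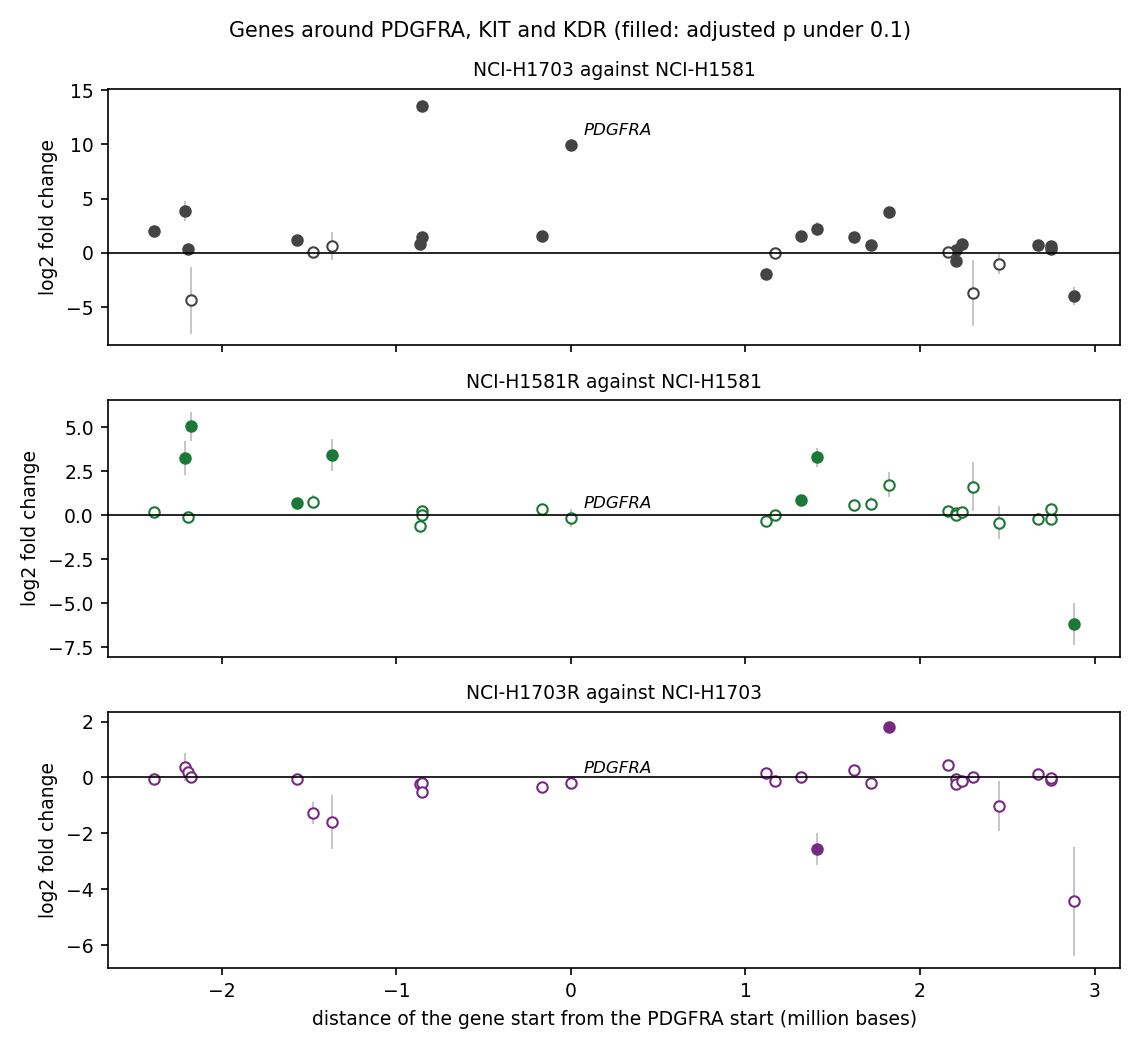
Log2 fold change of the 29 tested 4q12 genes against the distance of their start from that of PDGFRA, with bars of 1 standard error; filled points passed an adjusted p of 0.1 by edgeR. In the upper panel PDGFRA (9.96) stands far above its neighbours, whose median was 0.64, with the read-through gene higher still on a fitted value that depends on the prior count, since NCI-H1581 held 0 counts of it, and in both lower panels PDGFRA lies near 0.

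The genes whose log2 CPM followed PDGFRA most closely over the 8 libraries included NNMT (Pearson's r = 0.999), PLK2, PPP2R5D and ETS1, which are 4 of the nearest 5 of 14142 genes. The 8 points fall into 4 high and 4 low by line, and 294 genes had an r above 0.99.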

How the data were processed

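The members and gene lists were chosen with earlier results of these data known. The authors sequenced total RNA, trimmed the reads with cutadapt, quantified them with Salmon on GRCh38 and summed the estimates to genes with tximport. The authors deposited these estimated counts as whole numbers per gene, not normalised, in 1 table of 8 libraries (33800389 to 40031710 counts). Genes with at least 10 counts in total were tested with the quasi-likelihood test of edgeR 4.0.16 in R 4.3.3 (TMM, quasi-dispersions of version 4, two-sided), separately for each pair of groups, and over all 8 libraries for the difference between the lines. P-values were adjusted by Benjamini-Hochberg over all 18203 genes, and an adjusted p under 0.1 was a call. Standard errors are the absolute log2 fold change divided by the square root of F. CPM used TMM-scaled library sizes, and CPM per kb the canonical transcript of GENCODE 44, which held 34495 of the 37441 gene IDs. From each gene list, up to 4 called genes a comparison were named, those of largest change with a mean of at least 1 CPM, and any 4q12 gene could be. The result of 1 such gene is not reported here. LRRC66, SRD5A3, TMEM165 and the marker genes were named after their values were seen. The methods say the procedure was repeated for the second replicate, so the number was tried as a block. Deviations of same-numbered libraries correlated at 0.0627 in the NCI-H1581 pair and 0.206 in the NCI-H1703 pair. Alternatives were DESeq2 1.42.0, other normalisations, filters and dispersions, and leaving out each library. The code was tested on simulated data with 200 changed genes and no other change. The changed genes had at least 10 counts in every library, so genes at lower counts are not covered. The main fit called 44.5% to 54.5% of the changed genes in the right direction, with 4 to 10 false calls a comparison. The real comparisons held more calls, so these false calls do not carry over to them. A gene that did not pass the test is therefore not shown to be unchanged.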

Additional observations from a re-analysis of the deposited data

Results flagged for a closer look

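In 5 genes of the receptor families the change with resistance differed between the lines by the edgeR interaction test. They came from the 8 tested genes and their 13 relatives, and are read beside the 15.4% of all genes called. The differences are given on the log2 scale as the NCI-H1703 change minus the NCI-H1581 change. KITLG differed by -7.89 ± 1.05 (edgeR adjusted p = 0.00243, and -14.04 to -6.90 on leaving out 1 library), having risen in both NCI-H1581R libraries and fallen in both NCI-H1703R libraries. NRP1 differed by -8.77 ± 0.35 (edgeR adjusted p = 8.67e-06) and had the same directions, with 0.386 and 0.399 and 33.3 and 36.5 CPM in NCI-H1581 and its variant, and 6.70 and 5.89 and 1.30 and 1.24 CPM in NCI-H1703 and its variant. NRP2 differed by -4.05 (edgeR adjusted p = 0.0355), a call lost without the first (0.214) or second (0.127) NCI-H1703 library or the second NCI-H1703R library (0.115), on 4 to 10 counts a library in that line. FLT4 differed by -1.30 ± 0.27 (edgeR adjusted p = 0.0177). VEGFB differed by 0.74 ± 0.17 (edgeR adjusted p = 0.0300), a call lost without the first NCI-H1581 (0.103), the second NCI-H1703 (0.131) or the first NCI-H1703R library (0.131). Groups of 2 are too small for a test of single outlying libraries.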

How the results depend on the processing

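For the 8 tested genes, 40 results were recomputed in 506 alternatives. Direction and side of the threshold stayed in 463, a call was lost in 20 and gained in 10, and the sign turned in 13, all of them in results that were not called. With the replicate block PDGFRB in NCI-H1581R had a log2 fold change of 0.017. The other 12 turns came from leaving out 1 library: in NCI-H1581R PDGFRA ranged from -0.49 to 0.35, PDGFRB from -0.38 to 0.43, PDGFA from -0.59 to 0.10 and VEGFA from -0.39 to 0.043, in NCI-H1703R PDGFC ranged from -0.035 to 0.11, and the difference between the lines ranged from -0.57 to 0.24 for PDGFRA and from -0.40 to 0.26 for PDGFA. Over all genes, 2743 were called in NCI-H1581R, 1793 at an adjusted p of 0.05, 4539 in a single fit of the 8 libraries, and 1122 to 5186 without 1 library. In NCI-H1703R 2683 were called, 1640 at 0.05, 1730 in the single fit, and 274 to 1686 without 1 library, where the lone sample of a group is assumed to vary like the other group. Leaving out 1 library gave 9603 to 10970 calls between the sensitive lines, 6120 to 10361 between the resistant variants (9564 with all libraries) and 1571 to 4141 for the difference between the lines (2803). With the replicate block the counts were 3293 in NCI-H1581R, 6357 in NCI-H1703R, 11409 between the sensitive lines, 7638 between the resistant variants and 2526 for the difference, where a block within each line gave 3437. Among the 10 genes the block changed only the calls named beside their values. Same-numbered replicates of the resistant variants deviated in opposite directions (r = -0.319), and crossing their numbers gave 11063 calls. The cause of these shifts was not tested. In the genes named from the other lists, 1007 of 1155 alternatives kept the call, 148 lost it and the sign did not turn. With 2 libraries a group, and 2 residual degrees of freedom within a line, genes at low counts (PDGFRB and PDGFD in the NCI-H1703 line, PDGFRA and PDGFB in the NCI-H1581 line, with 2 to 63 counts a library) had errors of 0.51 log2 units or more in the change with resistance. KITLG, which was called in both lines, also had errors of that size, 0.54 in NCI-H1581R and 0.69 in NCI-H1703R.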
